A study of Mus musculus with 15 samples.

Results

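Transcripts of 10 genes that encode the motor subunits of chromatin remodellers outside the BAF complex were followed through a knockdown of the BAF subunit Smarcb1 in mouse embryonic stem cells (mESC). They were taken by name: Chd1, Chd3, Chd4, Chd7 and Chd8 of the CHD family, Smarca1 and Smarca5 of the ISWI family, and Ino80, Srcap and Ep400 of the INO80 class. All 10 were found among the 55228 genes listed for each library, and all 10 passed the minimum of 10 reads in every comparison.

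Remodellers are protein machines that use ATP to slide, space, evict or rebuild nucleosomes, and each is built around 1 ATPase of the Snf2 type. CHD4 and CHD3 drive the nucleosome remodelling and deacetylase complex NuRD, which mostly lowers transcription. ISWI ATPases space nucleosomes, the INO80 class handles nucleosomes that contain histone variants such as H2A.Z, and CHD1 binds methylated histone H3 at active genes. Several of these genes, Chd1, Chd4, Ino80 and Ep400 among them, are known to be needed for the self-renewal or potency of mESC.

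The cells were of the line 81K1, a single clone (K1) based on the mESC line OG2, which carries an shRNA against Smarcb1 in the Rosa26 locus that is expressed only with doxycycline. All libraries, controls included, came from this line, grown with LIF and serum on gelatine. The ctrl groups were untreated cells at 48 h and 240 h, and the kd groups were cells given 1 µg doxycycline per ml each day for 48 h, 72 h or 240 h. Each of the 5 groups had 3 libraries, and none came from cells that had doxycycline but no shRNA, so effects of the drug and of the knockdown cannot be told apart.

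Levels are given as the deposited FPKM, reads per kb of gene scaled to library depth, and the gene length behind them is the whole gene span, introns included. Library totals lay between 11074998 and 14515300 reads. Smarcb1 stood at 18.0%, 15.7% and 19.3% of its control mean in the 48 h, 72 h and 240 h kd libraries. The 5 mESC markers Pou5f1, Nanog, Sox2, Zfp42 and Esrrb summed to 587 to 757 FPKM in every library, against 0.120 to 0.426 FPKM for 5 primitive endoderm markers and 0.523 to 1.55 FPKM for 5 fibroblast or feeder markers. All 3 sums stood apart in the 240 h kd libraries, at 587 to 595, 0.333 to 0.426 and 1.33 to 1.55 FPKM, against 674 to 704, 0.176 to 0.275 and 0.853 to 0.965 in 240 h ctrl. The sum of the 4 neural progenitor markers Pax6, Sox1, Nes and Neurog2 was 7.32 to 8.47 FPKM in the ctrl libraries and was, over the kd groups, 13 to 14.75, 16.95 to 18.75 and 19.57 to 20.82 (48 h, 72 h, 240 h), with Neurog2 under 10 reads. The sum of 5 trophoblast markers was 9.08 to 9.79 FPKM at 48 h and 7.69 to 8.40 at 240 h in ctrl, and 5.89 to 6.37, 16.8 to 17.4 and 11.9 to 12.4 at the 3 times of kd, with Elf5 and Gata3 under 10 reads in each group and Cdx2 in all groups but 240 h kd. Of the primitive endoderm markers, Sox17 was under 10 reads in all groups but 240 h kd. Of the fibroblast markers, Postn and Dcn were so in each group, and Col1a2 in 48 h ctrl, 48 h kd and 240 h ctrl. The part of these markers in the results below was not tested. Library 2 of the 48 h kd group stood apart from its group, with 2.53% mitochondrial reads against 1.25% and 1.29%. For genes named at 48 h, values without this library are given beside the members, together after the partner genes, or with the flagged results. Library 3 of 240 h ctrl also differed, with 0.507% mitochondrial reads against 1.45% and 1.26%. In bulk RNA, fewer cells that express a gene and less RNA per cell cannot be told apart.

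Each of the 10 genes encodes the motor's ATP-hydrolysing site in a run of 4 codons, known as motif II of the Snf2 helicase domain. A window of 42 coding bases around it, read from GENCODE M21 transcripts of GRCm38, is printed for the 3 pairs of paralogs described below and for a pair of the INO80 class, since it shows how close each pair is and where the classes part. The 4 codons are in capitals.

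Chd3: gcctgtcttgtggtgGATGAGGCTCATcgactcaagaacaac
Chd4: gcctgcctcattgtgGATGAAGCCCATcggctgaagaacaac
Chd7: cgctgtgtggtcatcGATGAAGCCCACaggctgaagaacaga
Chd8: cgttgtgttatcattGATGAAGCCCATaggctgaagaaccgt
Smarca1: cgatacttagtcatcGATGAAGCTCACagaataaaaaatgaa
Smarca5: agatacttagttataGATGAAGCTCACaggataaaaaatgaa
Ino80: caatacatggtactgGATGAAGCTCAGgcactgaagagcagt
Ep400: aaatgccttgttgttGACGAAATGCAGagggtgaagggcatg

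The fourth codon was one for histidine in the 5 CHD and 2 ISWI genes and one for glutamine in Ino80, Srcap and Ep400. The third codon, one for alanine in the other genes printed, was one for methionine in Ep400. The capitals lie within 1 exon in each gene, at chr11:69356962-69356973 (minus strand) in Chd3, chr6:125108761-125108772 (plus) in Chd4, chr4:8828343-8828354 (plus) in Chd7 and chr14:52219651-52219662 (minus) in Chd8. They lie at chrX:47876409-47876420 (minus) in Smarca1, chr8:80726235-80726246 (minus) in Smarca5, chr2:119433211-119433222 (minus) in Ino80 and chr5:110708827-110708838 (minus) in Ep400. Over aligned coding bases, Smarca1 and Smarca5 were 73.9% identical, Chd3 and Chd4 71.3%, and Chd7 and Chd8 63.9%. No paralog pair shared a window of 75 transcript bases, the length of a read, so reads over exons could be assigned within each pair.

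Other genes could share reads with some members. The antisense gene Gm26590 crosses Chd8 and its own count came to as much as 72.9% of that of Chd8. Whether reads were counted by strand was not tested. Srcap (ENSMUSG00000053877) is overlapped on the same strand by the gene model Gm42715, which had up to 104% of its count. The antisense gene Gm28198, with up to 41.5%, overlaps it as well. Values printed as Chd8 and Srcap may therefore hold reads that belong to these neighbours. Of the transcript windows of Smarca5, 28.4% also occur in other genes, so reads from those windows could not be assigned by sequence alone. Among these genes are the pseudogene Smarca5-ps and Gm45872, a gene model inside Smarca5 with at most 6.58% of its count. This is a share of windows and not of reads. The share was 89.9% for Srcap, 4.70% for Ep400, 4.60% for Chd8 and 0 for Chd1, Chd3, Chd4, Chd7, Smarca1 and Ino80.

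Chd4, the NuRD motor, and Smarca5, the main ISWI motor, were the most abundant of the 10 in untreated cells on either length scale. In 48 h ctrl, Chd4 had 22.8 ± 1.1 FPKM and Smarca5 12.8 ± 0.37 FPKM (SD, n = 3), followed by Srcap at 4.71 ± 0.21, Chd8 at 3.37 ± 0.078, Chd1 at 3.13 ± 0.17, Ep400 at 1.79 ± 0.082, Chd3 at 1.63 ± 0.086, Ino80 at 1.10 ± 0.076, Chd7 at 0.526 ± 0.028 and Smarca1 at 0.383 ± 0.014. The only neighbours in that order whose libraries overlapped were Ep400 and Chd3.

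Introns inflate the length by which FPKM divides, by 3.10 times in Chd3 and by 15.4 times in Ino80. Divided by exonic length instead, the same reads gave per exonic kb 98.2 ± 4.6 for Chd4, 67.4 ± 1.9 for Smarca5, 24.3 ± 1.3 for Chd1, 16.9 ± 1.2 for Ino80, 14.7 ± 0.66 for Srcap, 13.7 ± 0.62 for Ep400, 12.2 ± 0.28 for Chd8, 6.76 ± 0.36 for Chd7, 5.23 ± 0.19 for Smarca1 and 5.05 ± 0.27 for Chd3 (48 h ctrl, SD, n = 3). Whether reads in introns are among those counted was not tested. Such reads would raise genes with long introns on this scale. Ino80 thus moved from the eighth to the fourth place and Chd3 from the seventh to the tenth. Exonic length here joins all annotated exons of a gene, so it can exceed that of a single transcript. It was 16523 bases in Chd8, whose transcript compared above held 8116 windows of 75 bases. The order below Chd4 and Smarca5 depends on the length chosen, and the paralog percentages below rest on the same exonic lengths. Smarca1 and Chd3 overlapped on this scale. In 240 h ctrl, Srcap and Ino80 overlapped as well, at 20.5 ± 1.8 and 19.9 ± 0.72.

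**Figure D1:**
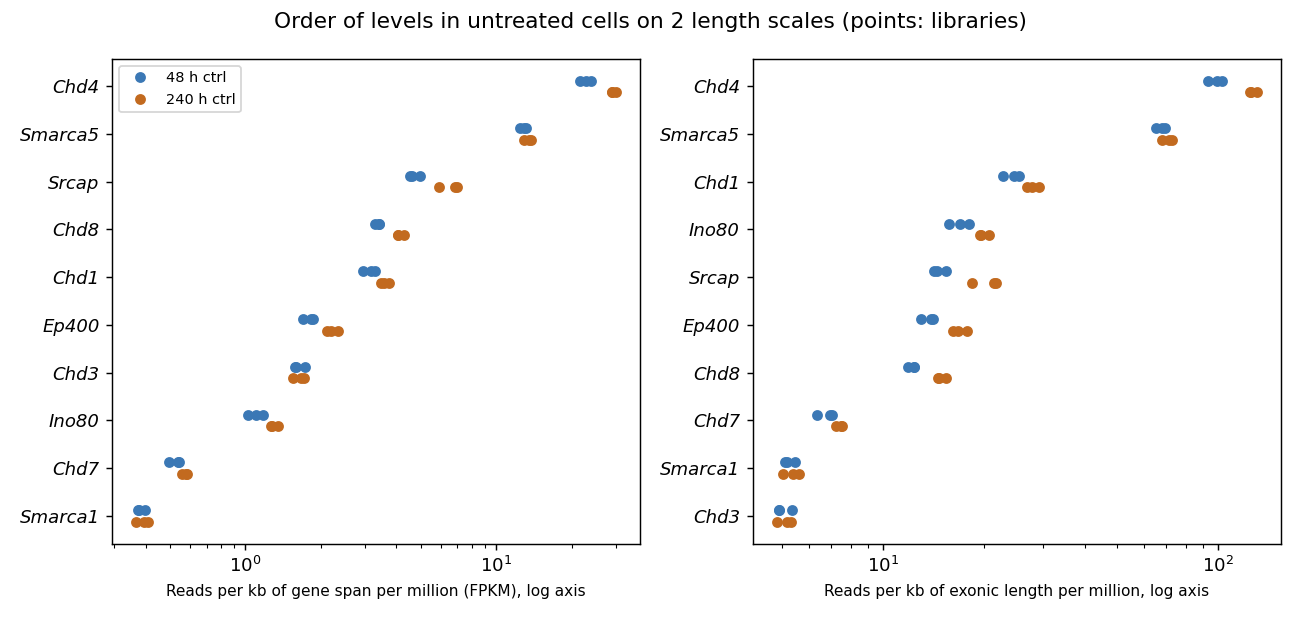
Levels of the 10 remodeller ATPase genes in the 3 libraries of 48 h ctrl (blue) and of 240 h ctrl (orange), per kb of gene span (left) and per kb of exonic length (right), on log axes. Chd4 and Smarca5 lead on both scales, while Ino80 and Chd3 change places with the length used.

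The knockdown was compared with its control at each time, and the 72 h kd libraries, which lack untreated cells of their own time, with 48 h ctrl. A gene passed at an adjusted p under 0.05 in limma, and was called if its absolute log2 fold change also exceeded 0.58. At 48 h, 1 of the 10 genes rose and 2 fell, against 9.68% of all genes tested that passed higher and 10.6% that passed lower. At 72 h, 4 rose and 5 fell, against 29.9% and 27% of all genes, and 1 was called lower, against 8.86%. At 240 h, 2 rose and 2 fell, against 20.2% and 18.5%, and 1 was called lower, against 7.23%. The median log2 fold change of the 10 was -0.0035, -0.083 and -0.061, beside 0.0069, 0.015 and 0.0077 for all genes tested. The count at 48 h is near that of all genes, and it fell from 3 to 0 in 5 of the 6 analyses that left out 1 library, and to 2 without 48 h kd library 2. Without that library Chd8, Smarca1, Ino80, Srcap, Ep400 and Chd1 had log2 fold changes of -0.15, 0.0972, 0.0776, -0.0385, -0.0938 and 0.0361 at 48 h, and none of them passed (adjusted p = 0.0848 to 0.701). Without 240 h ctrl library 3, Chd1, Chd3, Chd7 and Smarca5 still passed at 240 h (0.18, -0.829, 0.509 and -0.246, adjusted p = 0.0328, 0.00296, 0.00363 and 0.0057) and the others still did not (adjusted p = 0.104 to 0.991). Of the other genes named at 240 h, Baz2b, Actr6, H3f3b and Chd9 passed without it as well (-0.841, -0.371, -0.213 and 0.24, adjusted p = 0.00322, 0.0254, 0.00895 and 0.0398).

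**Figure D2:**
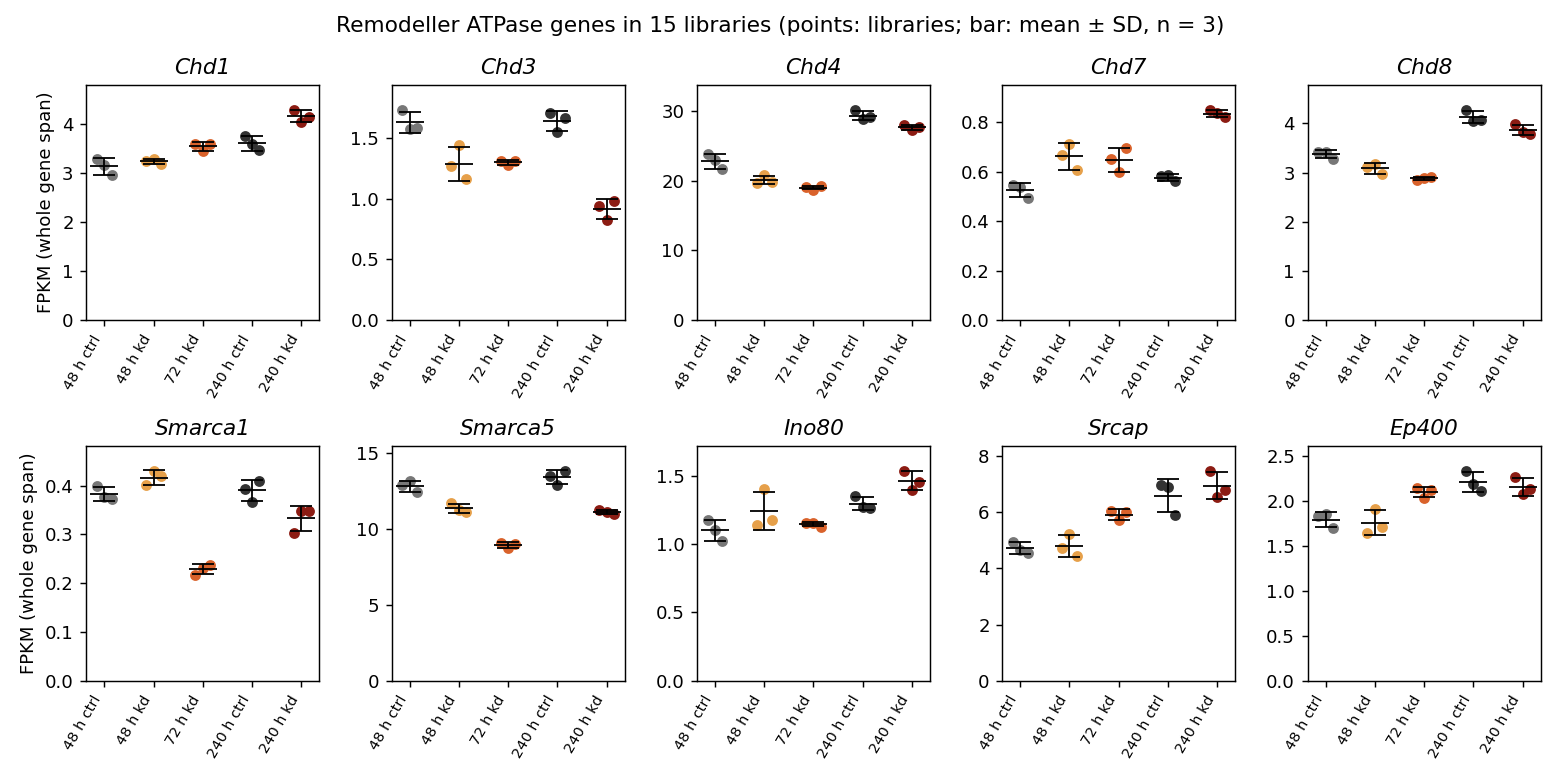
FPKM (y axis, per gene span, from 0) of each of the 10 genes in the 15 libraries, by group (x axis), with 3 points per group and the mean ± SD as a bar. Chd3 falls lowest in 240 h kd, Smarca1 and Smarca5 fall lowest in 72 h kd, and Chd7 is highest in 240 h kd.

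Chd3, the minor NuRD motor in these cells, was the member lowered most at 240 h. Untreated cells had 1.73, 1.58 and 1.58 FPKM at 48 h and 1.71, 1.55 and 1.67 at 240 h. Doxycycline brought 1.27, 1.44 and 1.16 at 48 h, 1.31, 1.28 and 1.31 at 72 h and 0.943, 0.822 and 0.981 at 240 h. Every kd library was below every ctrl library, and the 240 h kd libraries were below all others. At 240 h it stood at 55.7% of control and fell by 0.84 ± 0.082 log2 units (SE, adjusted p = 0.000545, limma). At 72 h it fell by 0.32 ± 0.053 (adjusted p = 0.00256). At 48 h it fell by 0.34 ± 0.092 (adjusted p = 0.0448), which kept an adjusted p under 0.05 without 48 h kd library 2 but had 0.0995 to 0.123 without any of the other 5 libraries. The counts behind these values were 312 to 621 reads per library. The marker sums for mESC, primitive endoderm and fibroblasts also stood apart in 240 h kd, and their part in the 240 h values of Chd3 and of Chd7 was not tested.

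The effect on Chd3 at 240 h exceeded that at 48 h by 0.50 ± 0.13 on the log2 scale toward lower values (limma interaction term, adjusted p = 0.0205). This was the only member that passed lower in that test and none passed higher, against 8.5% and 9.58% of all genes tested. Without 48 h ctrl library 2 its adjusted p was 0.0505, and without 240 h ctrl library 3 it was 0.0407.

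Chd4, the major NuRD motor, changed less and was higher at 240 h than at 48 h in untreated cells. In untreated cells its FPKM was 23.8, 22.9 and 21.6 at 48 h and 30.1, 28.8 and 29.1 at 240 h. After knockdown it was 19.7, 20.8 and 19.8 at 48 h, 19.1, 18.7 and 19.2 at 72 h and 28.0, 27.2 and 27.7 at 240 h. The groups did not overlap at any time, and both groups at 240 h were above all libraries of 48 h and 72 h. Chd4 fell at 72 h by 0.26 ± 0.041 (log2, SE, limma adjusted p = 0.0021). Its log2 fold change was -0.18 ± 0.051 at 48 h (adjusted p = 0.0540, and 0.0428 without 48 h kd library 2) and -0.086 ± 0.035 at 240 h (adjusted p = 0.0973). As a share of Chd4, per exonic kb, Chd3 came to 5.15 ± 0.17% at 48 h and 4.02 ± 0.13% at 240 h in untreated cells, and to 4.60 ± 0.38%, 4.91 ± 0.0044% and 2.38 ± 0.19% at 48 h, 72 h and 240 h of knockdown (SD, n = 3).

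Chd7 and Chd8, a pair of paralogs, moved in opposite directions at 72 h. Chd7, which binds enhancers and is known from neural crest development, had 0.546, 0.538 and 0.494 FPKM at 48 h and 0.581, 0.587 and 0.561 at 240 h without doxycycline. With doxycycline it had 0.666, 0.713 and 0.607 at 48 h, 0.652, 0.599 and 0.694 at 72 h and 0.849, 0.836 and 0.819 at 240 h. Every kd library was above every ctrl library. Chd7 rose at 240 h by 0.53 ± 0.060 log2 units (SE, adjusted p = 0.000997, limma), to 145% of control. It also passed at 48 h (0.32 ± 0.090, adjusted p = 0.0486) and at 72 h (0.29 ± 0.081, adjusted p = 0.0198). At 48 h the adjusted p was 0.0575 to 0.148 without any 1 library, 0.0934 of them without 48 h kd library 2. At 72 h it was 0.0584 without 48 h ctrl library 3, 0.0572 without 72 h kd library 1 and 0.0666 without 72 h kd library 3, and it was 0.0556 with median centring and 0.0603 with quantile normalization.

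Chd8, a negative regulator of beta-catenin targets, had 3.42, 3.42 and 3.28 FPKM at 48 h and 4.27, 4.05 and 4.07 at 240 h in untreated cells. Knockdown cells held 3.11, 3.18 and 2.97 at 48 h, 2.86, 2.89 and 2.92 at 72 h and 3.99, 3.83 and 3.78 at 240 h. Kd libraries lay below those of the control at each time without overlap. Chd8 fell at 72 h by 0.22 ± 0.035 (log2, SE, limma adjusted p = 0.00219), and its log2 fold change was -0.13 ± 0.048 at 48 h (adjusted p = 0.111) and -0.095 ± 0.042 at 240 h (adjusted p = 0.12). Per exonic kb, Chd7 was 55.5 ± 1.7% of Chd8 at 48 h and 49.7 ± 1.7% at 240 h in untreated cells, against 76.3 ± 3.6%, 79.99 ± 5.6% and 76.9 ± 1.0% at 48 h, 72 h and 240 h of knockdown (SD, n = 3). The ratio was higher in all 9 kd libraries than in all 6 ctrl libraries, with the antisense reads at Chd8 as a limit. The percentages themselves depend on the exonic lengths used, 13786 bases for Chd7 and 16523 for Chd8.

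Both ISWI motors were lowest at 72 h. Smarca1 (SNF2L), the ISWI motor best known from neurons and gonads, had 0.398, 0.378 and 0.372 FPKM at 48 h and 0.394, 0.367 and 0.409 at 240 h in untreated cells. Its knockdown values were 0.401, 0.430 and 0.419 at 48 h, 0.218, 0.230 and 0.238 at 72 h and 0.303, 0.348 and 0.348 at 240 h. The 72 h kd libraries were below all other libraries, while 48 h kd lay above 48 h ctrl. At 72 h Smarca1 fell by 0.72 ± 0.075 log2 units (SE, adjusted p = 0.000381, limma), to 59.8% of the 48 h ctrl mean. Its log2 fold change was 0.12 ± 0.078 at 48 h (adjusted p = 0.321) and -0.22 ± 0.093 at 240 h (adjusted p = 0.101). The difference between those 2 effects was -0.34 ± 0.11 (adjusted p = 0.0525). Between 233 and 457 reads per library stood behind these values.

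Smarca5 (SNF2H), the ISWI motor of dividing cells, had 12.9, 13.1 and 12.4 FPKM at 48 h and 13.5, 12.9 and 13.8 at 240 h without doxycycline. The knockdown libraries gave 11.7, 11.3 and 11.1 at 48 h, 9.08, 8.73 and 9.02 at 72 h and 11.2, 11.1 and 11.002 at 240 h. Every kd library was below every ctrl library. Like Chd3 and Chd7, Smarca5 passed in the same direction at all 3 times. It fell by 0.17 ± 0.044 at 48 h (log2, SE, limma adjusted p = 0.0368), 0.52 ± 0.034 at 72 h (adjusted p = 7.4e-05) and 0.27 ± 0.038 at 240 h (adjusted p = 0.00227). At 48 h the adjusted p was 0.0524 to 0.141 without any 1 library, 0.0543 of them without 48 h kd library 2. Smarca1 came to 7.76 ± 0.29% of Smarca5 per exonic kb at 48 h and 7.55 ± 0.16% at 240 h in untreated cells, and to 9.54 ± 0.55%, 6.63 ± 0.36% and 7.77 ± 0.67% at 48 h, 72 h and 240 h of knockdown (SD, n = 3), and ctrl and kd overlapped at 240 h.

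Chd1, which opens chromatin at transcribed genes, was higher in kd at 72 h and 240 h. Its untreated libraries had 3.27, 3.17 and 2.95 FPKM at 48 h and 3.75, 3.57 and 3.46 at 240 h. The treated ones had 3.23, 3.29 and 3.18 at 48 h, 3.59, 3.44 and 3.59 at 72 h and 4.27, 4.03 and 4.14 at 240 h. Ctrl and kd overlapped at 48 h and did not at 72 h and 240 h. Chd1 rose by 0.18 ± 0.050 at 72 h (log2, SE, limma adjusted p = 0.0209) and by 0.21 ± 0.046 at 240 h (adjusted p = 0.0142). Its adjusted p at 72 h was 0.0654 without 72 h kd library 1 and 0.0657 without library 3, and with median centring its log2 fold change at 72 h was 0.11 (adjusted p = 0.104). Against 240 h ctrl it was -0.022 at 72 h (adjusted p = 0.693). The adjusted p at 240 h was 0.0506 without 240 h ctrl library 2.

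Of the 3 motors of the INO80 class, Srcap and Ep400 passed higher at 72 h, where 29.9% of all genes did, and both had a log2 fold change below 0 against 240 h ctrl (-0.15 and -0.075). Srcap, which loads H2A.Z, had 4.95, 4.64 and 4.54 FPKM at 48 h and 6.95, 6.88 and 5.91 at 240 h without doxycycline. It had 4.72, 5.23 and 4.45 after 48 h of doxycycline, 6.03, 5.70 and 6.002 after 72 h and 7.46, 6.53 and 6.79 after 240 h. The 72 h kd libraries were above the 48 h libraries, and ctrl and kd overlapped at 48 h and at 240 h. Srcap rose at 72 h by 0.33 ± 0.045 (log2, SE, limma adjusted p = 0.00121). Ep400, the motor of the TIP60 complex, ranged from 1.70 to 1.85 FPKM in the untreated 48 h libraries and from 2.03 to 2.14 after 72 h of knockdown, and rose by 0.23 ± 0.050 (adjusted p = 0.00887). Its log2 fold change was -0.032 ± 0.075 at 48 h and -0.036 ± 0.059 at 240 h (adjusted p = 0.802 and 0.661). Ino80 did not pass at any time in the test on FPKM: its log2 fold change was 0.17 ± 0.10, 0.058 ± 0.064 and 0.17 ± 0.059 at 48 h, 72 h and 240 h (adjusted p = 0.278, 0.462 and 0.0582), with FPKM between 1.02 and 1.54 over the 15 libraries. With voom on the recovered reads and with quantile normalization, Ino80 did pass at 240 h (0.17 and 0.18, adjusted p = 0.00685 and 0.0386).

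**Figure D3:**
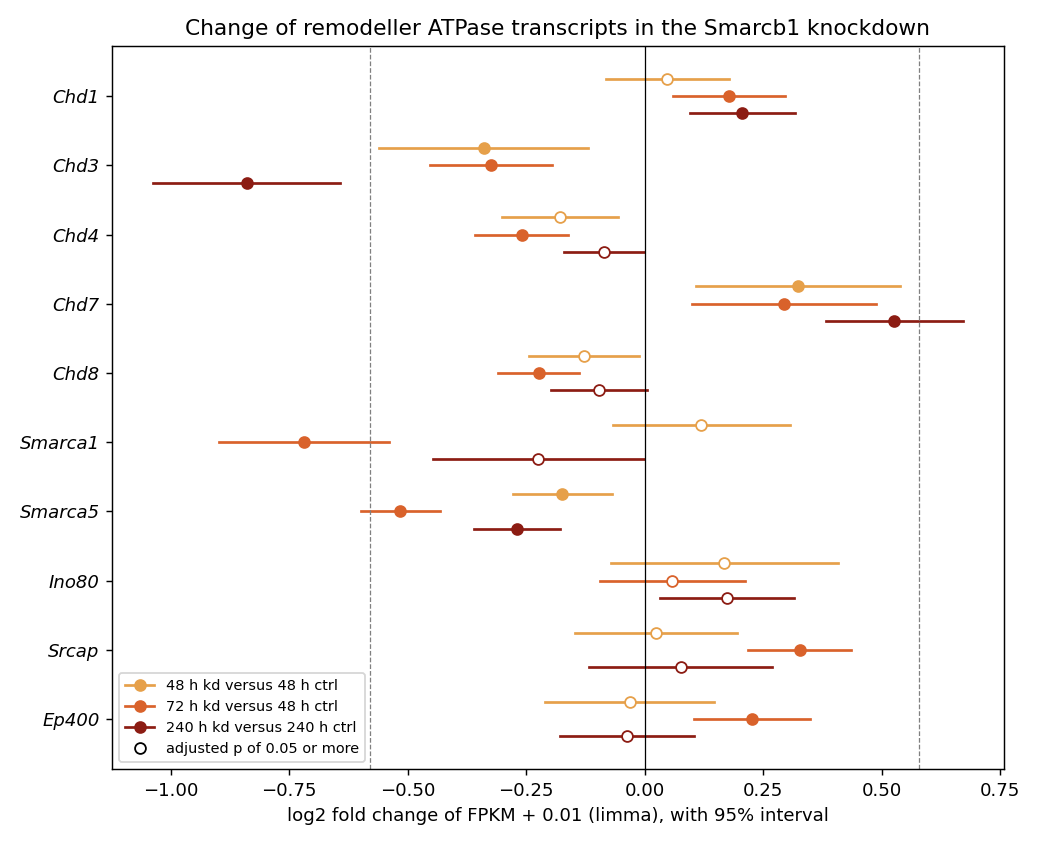
Log2 fold change of the 10 genes (y axis) in the 48 h, 72 h and 240 h kd comparisons (colours), with 95% intervals from limma as lines and filled points where the adjusted p was under 0.05. Dashed lines mark a log2 fold change of 0.58 in either direction, passed by Smarca1 at 72 h and Chd3 at 240 h, while Ino80 has open points throughout.

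The 72 h comparison has no untreated cells of its own time, and for some members the choice of control set the sign. Untreated cells themselves differed between 240 h and 48 h: Chd4 was higher by 0.37 ± 0.047, Chd8 by 0.29 ± 0.043 and Srcap by 0.48 ± 0.073 log2 units (SE, adjusted p = 0.0329, 0.0363 and 0.0384, limma). Thus 3 of 10 members passed higher and 0 lower, against 1.68% and 1.06% of all genes tested. All 3 passes were lost when any 1 of the 6 libraries was left out, with adjusted p from 0.0565 to 0.151. The median over the 10 was 0.22, beside -0.016 over all genes and 0.031 over protein-coding genes of at least 6000 exonic bases, as each of the 10 is. With 240 h ctrl in place of 48 h ctrl, Srcap at 72 h had a log2 fold change of -0.15 (adjusted p = 0.104), Ep400 of -0.075 (0.264), Chd1 of -0.022 (0.693) and Ino80 of -0.18 (0.0254). Chd7 kept its sign at 0.17 (0.105). The 5 members that fell against 48 h ctrl also fell against 240 h ctrl: Chd4 by 0.63, Chd8 by 0.52, Smarca1 by 0.75, Smarca5 by 0.58 and Chd3 by 0.33. These comparisons share the 72 h kd libraries.

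Between the kd groups, Smarca1 fell from 48 h to 72 h by 0.84 ± 0.081 log2 units and Smarca5 by 0.34 ± 0.041 (SE, limma adjusted p = 0.00118 and 0.00199). Srcap rose by 0.30 ± 0.067 and Ep400 by 0.26 ± 0.069 (adjusted p = 0.0148 and 0.028). That is 2 of 10 higher, 2 lower and 1 called lower, against 20.6%, 16.1% and 5.1% of all genes tested. The rise of Srcap was lost without 72 h kd library 1 or 3 (adjusted p = 0.0541 and 0.0543), and that of Ep400 had an adjusted p of 0.0584 to 0.0902 without any library but 48 h kd library 2.

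From 72 h to 240 h of knockdown, 8 of 10 members rose and 1 fell, against 28.9% and 31.4% of all genes tested. Chd4 rose by 0.54 ± 0.025, Smarca1 by 0.52 ± 0.087, Chd8 by 0.42 ± 0.035, Chd7 by 0.36 ± 0.070, Ino80 by 0.35 ± 0.051, Smarca5 by 0.31 ± 0.028, Chd1 by 0.23 ± 0.037 and Srcap by 0.23 ± 0.055 (log2, SE, limma adjusted p = 2.59e-05 to 0.0122). Chd3 went the other way and fell by 0.51 ± 0.074 (adjusted p = 0.00151). Ep400 had a log2 fold change of 0.039 ± 0.049 (adjusted p = 0.519). The median over the 10 was 0.33, beside -0.015 over all genes and 0.041 over protein-coding genes of at least 6000 exonic bases. Untreated cells also differed between 48 h and 240 h, so time in culture and time in knockdown cannot be told apart in this comparison.

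The ATPases work with partner subunits, which were counted in lists chosen by complex. The counts stand beside the shares of all genes tested, of which 9.68% passed higher and 10.6% lower at 48 h, 29.9% and 27% at 72 h, and 20.2% and 18.5% at 240 h. Of 9 ISWI partners, 0 rose and 2 fell at 48 h, 3 rose and 3 fell at 72 h, and 2 rose and 3 fell at 240 h, with list medians of 0.067, 0.015 and -0.027. By voom 2 rose and 3 fell at 48 h. Baz1a (ACF1), which pairs with SNF2H to space nucleosomes, fell by 0.66 ± 0.081 at 48 h and by 0.86 ± 0.092 at 72 h (log2, SE, limma adjusted p = 0.00335 and 0.000437). It ranged from 0.357 to 0.393 FPKM in the untreated 48 h libraries, from 0.232 to 0.237 after 48 h of knockdown and from 0.185 to 0.221 after 72 h. At 240 h it overlapped between ctrl, at 0.390 to 0.421, and kd, at 0.372 to 0.414 (log2 fold change -0.061 ± 0.080, adjusted p = 0.583). Baz2b, a bromodomain partner of ISWI, was lowest in 240 h kd at 0.0905 to 0.102 FPKM, against 0.174 to 0.182 in 240 h ctrl, and fell by 0.84 ± 0.088 (adjusted p = 0.000714).

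Of 12 NuRD partners, 0 rose and 1 fell at 48 h, 3 rose and 4 fell at 72 h, and 2 rose and 3 fell at 240 h, with medians of -0.033, -0.011 and -0.018. None was called, and the counts at 72 h are near the 29.9% and 27% of all genes. The deacetylase gene Hdac1, named after its values were seen, was the 1 that fell at 48 h, by 0.26, and it fell by 0.53 at 72 h (limma adjusted p = 0.0158 and 6.04e-05). It had 7.14 to 7.31 FPKM in the untreated 48 h libraries, 5.71 to 6.29 after 48 h of knockdown and 4.84 to 5.10 after 72 h. Its ranges at 240 h were 6.42 to 7.03 in ctrl and 6.71 to 6.74 in kd.

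Of 14 INO80 partners, 0 rose and 0 fell at 48 h by limma at an adjusted p under 0.05 (0 also at an unadjusted p under 0.05, 1 higher by voom), 2 rose and 5 fell at 72 h, and 1 rose and 1 fell at 240 h, against 29.9% and 27% of all genes at 72 h and 20.2% and 18.5% at 240 h. Of 5 SRCAP partners, 1 fell at 48 h, 2 fell and 1 rose at 72 h, and 1 fell at 240 h. Actr6, the actin-related subunit of the SRCAP complex, was the gene that fell at 48 h and at 240 h, and it was also lower at 72 h. Its log2 fold change was -0.46 ± 0.067, -0.67 ± 0.081 and -0.33 ± 0.081 (SE, limma adjusted p = 0.00571, 0.000693 and 0.0191), with 1.36 to 1.42 FPKM in the untreated 48 h libraries and 0.780 to 0.936 after 72 h of knockdown. At 240 h its adjusted p was 0.055 without 240 h ctrl library 1, 0.0657 without 240 h ctrl library 2 and 0.0528 without 240 h kd library 3. Of 11 TIP60-EP400 partners, 1 rose and 2 fell at 48 h, 1 rose and 3 fell at 72 h, and 0 rose and 2 fell at 240 h. By voom, 3 INO80 partners rose and 1 fell, and 2 TIP60-EP400 partners rose and 2 fell, at 240 h.

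Of 4 histone variant genes that these remodellers handle, H2afz, H2afv, H3f3a and H3f3b, 2 fell at 48 h, 3 at 72 h and 3 at 240 h, against 10.6%, 27% and 18.5% of all genes tested, and none rose. The list medians were -0.16, -0.41 and -0.31. H3f3b, which encodes H3.3, had 71.0 to 73.7 FPKM in the untreated 48 h libraries, 52.6 to 58.1 after 48 h of knockdown and 46.0 to 48.8 after 72 h, and it fell by 0.37 ± 0.057 and 0.59 ± 0.037 (log2, SE, limma adjusted p = 0.00744 and 5.77e-05). At 240 h it had 72.5 to 81.3 FPKM in ctrl and 63.4 to 63.8 in kd and fell by 0.26 ± 0.052 (adjusted p = 0.0091).

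Without 48 h kd library 2, Baz1a, Hdac1, Actr6 and H3f3b still passed lower at 48 h, with log2 fold changes of -0.67, -0.215, -0.513 and -0.321 (limma adjusted p = 0.00854, 0.0161, 0.0054 and 0.00627). Baz2b had not passed at 48 h with all libraries (-0.389, limma adjusted p = 0.116), and passed lower without that library, at -0.542 (adjusted p = 0.0208). The lists then held 3 ISWI partners and 1 NuRD, 0 INO80 and 1 SRCAP partner that passed lower, 1 TIP60-EP400 partner in each direction, and 2 histone variants that passed lower. Of the other ATPases followed below, Chd9 kept its pass at 0.332 (adjusted p = 0.0449), while Chd5 had 0.158, Chd6 -0.057, Chd1l -0.0875 and Smarca4 0.0774 (adjusted p = 0.226 to 0.69). Smarca2 had -0.363 (limma adjusted p = 0.183).

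**Figure D4:**
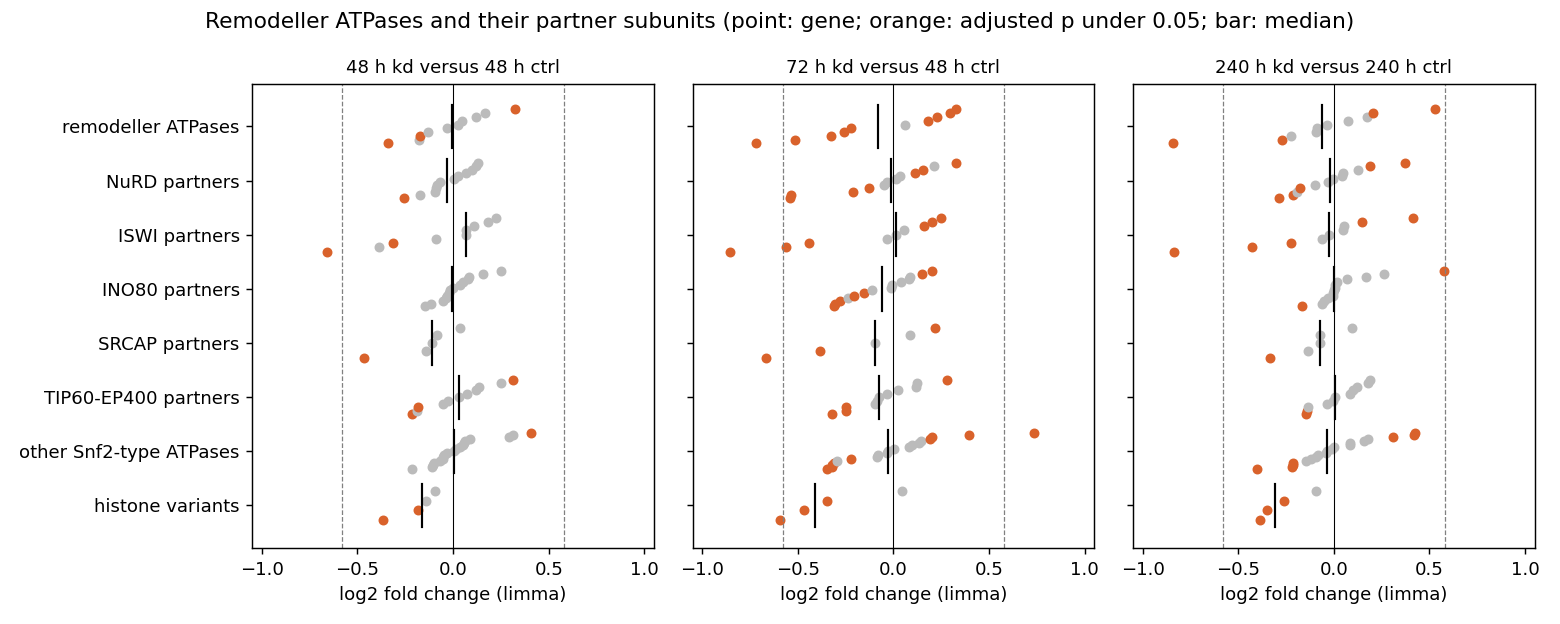
Log2 fold change (x axis, limma) of each remodeller ATPase gene and each listed partner (points, by list on the y axis) in the 3 kd comparisons, orange where the adjusted p was under 0.05, with the list median as a black bar and dashed lines at 0.58 in either direction. Most points lie within the dashed lines, and the histone variants lie mostly below 0.

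Neither ATPase of the BAF complex itself passed at the 3 times in the test on FPKM. Smarca4, the BAF motor of mESC, had 4.90 to 5.06 FPKM at 48 h and 4.90 to 5.20 at 240 h in untreated cells, and 5.09 to 5.31, 4.59 to 4.79 and 5.03 to 5.11 at 48 h, 72 h and 240 h of knockdown. Its log2 fold change was 0.062 ± 0.041, -0.080 ± 0.034 and -0.0013 ± 0.038 at 48 h, 72 h and 240 h (SE, limma adjusted p = 0.332, 0.0847 and 0.982). At 72 h Smarca4 passed lower with voom, median centring and quantile normalization (-0.080, -0.15 and -0.12, adjusted p = 0.0321, 0.0178 and 0.0319). Smarca2, the alternative motor, had 9 to 36 reads per library and adjusted p of 0.439, 0.131 and 0.533, and it passed lower at 72 h against 240 h ctrl (-0.33, adjusted p = 0.0376).

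The CHD paralogs outside the 10 differed from one another. Chd5, a NuRD motor of neurons, rose at 72 h by 0.74 ± 0.094 (log2, SE, limma adjusted p = 0.000898), from 0.180 to 0.222 FPKM in the untreated libraries to 0.342 to 0.346 in the treated ones, on 105 to 234 reads. Its log2 fold change was 0.31 at 48 h and 0.18 at 240 h (adjusted p = 0.211 and 0.353). Chd9 rose by 0.41, 0.19 and 0.31 at 48 h, 72 h and 240 h (adjusted p = 0.0274, 0.0435 and 0.0238), and each of these passes was lost without at least 3 of the 6 libraries in turn. Against 240 h ctrl its log2 fold change at 72 h was -0.11 (adjusted p = 0.243). Chd2 rose at 72 h by 0.40 (adjusted p = 0.00665), a pass that was lost against 240 h ctrl (0.11, adjusted p = 0.145). Chd6 and Chd1l did not pass against the controls above, with log2 fold changes between -0.10 and 0.098 and adjusted p of 0.236 to 0.852. Chd6 was higher in 240 h ctrl than in 48 h ctrl by 0.43 (adjusted p = 0.0492, and 0.0651 with the replicate number as a block), and against 240 h ctrl it passed lower at 72 h (-0.33, adjusted p = 0.0104).

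The genes whose profile over the 15 libraries was most like that of Chd3 were B4galt6, Sorl1 and Dlgap3, with Pearson's r of 0.971, 0.964 and 0.962 among 10043 protein-coding genes compared. For Smarca1 they were Hsph1, Rars and Pdcd5, with 0.970, 0.969 and 0.966. These are descriptions, since the libraries of a group share their treatment and time.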

How the data were processed

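Total RNA of 15 libraries was sequenced as single 75-base reads. The authors aligned reads to mm10 (GRCm38) with STAR 2.7.0c, counted them per gene in R and tested counts with DESeq2 1.30.0 (versions per the labels). The deposited values are FPKM, which the authors scaled by whole gene span and library total: multiplying them back gave whole reads for 100% of values (tolerance 0.001). Reads summed over genes exceeded the totals by 7.38% to 8.34%, so overlapping genes share reads. The treatment of reads with several alignments is not given in the sources used here. GENCODE M21 matched 96.5% of genes.

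Groups were compared with limma 3.58.1 (R 4.3.3, eBayes with a trend) on log2(FPKM + 0.01), two-sided. Genes averaging 10 or more reads in the libraries compared were tested, with Benjamini-Hochberg adjustment over all genes tested. Fold changes are on the log2(FPKM + 0.01) scale, which understates changes of low genes. Groups came from the sample labels. Nothing states that RNA-seq replicates were separate cultures, so p-values measure only the spread between these libraries. An exact permutation test of 3 against 3 cannot go below p = 0.1 and was not used. On simulated data the script recovered genes of known change. The members, gene lists and tests were chosen with earlier results of these data known. Named were all 10 members, Smarcb1, called genes of the partner lists (at most 4 per list and comparison), 7 paralogous ATPases and, for called members, the 3 genes of highest correlation; other partners were named after their values were seen. Alternatives were pseudocounts of 0.1 and 1, other minimums, scalings, fits and controls, and each library left out. The read counts given set the counting error. Plots were drawn with matplotlib 3.10.9. A further neural progenitor marker is not reported here.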

Additional observations from a re-analysis of the deposited data

Results flagged for a closer look

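A test of the 240 h effect against the 48 h effect of the knockdown (limma interaction term over 12 libraries, adjusted p under 0.05) passed for 1 of the 10 members. The effect on Chd3 was -0.34 at 48 h and -0.84 at 240 h, a difference of -0.50 ± 0.13 on the log2 scale (SE, adjusted p = 0.0205).

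The same test passed for 12 of the 74 partner genes, other Snf2-type ATPases and histone variants, against 18.1% of all genes tested, so the count is not above that of all genes. Apart from Baz1a they are named after their values were seen. Lower at 48 h but not at 240 h were Baz1a, with effects of -0.66 and -0.06 (difference 0.60 ± 0.10, adjusted p = 0.00205), and the deacetylase gene Hdac1, with -0.26 and 0.00 (difference 0.25, adjusted p = 0.0186). Hdac2 went the other way, with 0.10 and -0.29 (difference -0.39, adjusted p = 0.00352). The largest difference among these genes was that of Ino80c, a subunit of the INO80 complex, with -0.11 and 0.58 (0.69 ± 0.09, adjusted p = 0.000613). The histone-binding NuRD subunit gene Rbbp7 had 0.03 and 0.37 (0.35, adjusted p = 0.00905) and Mbd3, which holds NuRD together, -0.07 and 0.19 (0.26, adjusted p = 0.033). Baz2a had -0.09 and -0.43 (-0.34, adjusted p = 0.00506). Atrx, a motor that deposits H3.3 at repeats, had -0.10 and 0.43 (0.53, adjusted p = 0.0158), and the DNA translocase gene Hltf had 0.02 and 0.42 (0.40, adjusted p = 0.00452). Zranb3 had 0.01 and -0.40 (-0.41, adjusted p = 0.018), Ttf2 had 0.05 and -0.21 (-0.27, adjusted p = 0.00452) and H3f3a had -0.18 and -0.35 (-0.17, adjusted p = 0.045). Without 48 h kd library 2, the 48 h effects were 0.135 for Hdac2, -0.165 for Ino80c, 0.0815 for Rbbp7, -0.0215 for Mbd3 and -0.102 for Baz2a. They were -0.192 for Atrx, 0.0129 for Zranb3, 0.0736 for Ttf2 and -0.183 for H3f3a, and that of Hltf changed sign, to -0.0172.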

How the results depend on the processing

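Of 51 results on single genes that passed, 32 kept their direction and passed under every alternative. For the 3 kd comparisons (48 h, 72 h, 240 h), the 240 h against 48 h ctrl comparison, 72 h against 48 h kd, 240 h against 72 h kd and the 240 h minus 48 h effect, in this order, 1271, 3265, 2594, 101, 1847, 3728 and 1619 of all genes were called. With no fold threshold these counts were 3263, 9176, 6432, 444, 5920, 9982 and 2966, and members called were 3, 9, 4, 3, 4, 9 and 1, by construction. A pseudocount of 0.1 left 720 genes called at 48 h, 1656 at 240 h, 67 between ctrl groups and 1155 between 48 h and 72 h kd, with 0 members called at 72 h, where Smarca1 still passed at -0.55, and 2 members passing for the difference of effects. A pseudocount of 1 left 188, 684, 520, 15, 306, 828 and 343 genes called and 0 members at 72 h, at 240 h and from 48 h to 72 h kd, with 2 members passing for the difference of effects. With no minimum of reads, 0 members passed at 48 h (811 genes called) and 0 for the difference of effects. A minimum of 0.5 FPKM, under which Smarca1 was not tested, left 503, 1705, 1116, 59, 946, 1974 and 730 genes called, 1 member passing at 48 h and 0 called at 72 h or from 48 h to 72 h kd.

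Under quantile normalization 1 member passed at 48 h, and the log2 fold change was -0.0077 for Chd6 at 48 h, -0.0095 for Ino80 at 72 h and -0.11 for Smarca2 at 240 h, each reversed. Scaling as TPM reversed Srcap (-0.017) and Chd6 (-0.0063) at 48 h, and between the ctrl groups 6 members passed, 1 was called and 281 genes were called, 254 of them higher against 73 of 101, while the median of all genes moved from -0.016 to 0.090. From 72 h to 240 h kd it gave 2 members called and 2137 of 3713 genes higher, against 46.7% before, and from 48 h to 72 h kd 1314 of 2000, against 55.5%. Median centring gave 2 members called at 72 h and 1 from 72 h to 240 h kd, and Ino80 at -0.0080 at 72 h. It also turned the balance of genes called. At 72 h 1536 were higher and 1755 lower (1835 and 1430 before), and from 48 h to 72 h kd 868 and 997 (1025 and 822 before). From 72 h to 240 h kd they were 2051 and 1669 (1742 and 1986 before). With 1 fit of 15 libraries, 5 members passed at 48 h, 5 between ctrl groups (197 genes called) and 2 for the difference of effects. Without the trend these were 1, 0 (1 gene called) and 2. With voom on recovered reads, 7 members passed at 240 h, Chd4, Smarca1 and Ino80 among them, 6 between ctrl groups (220 genes called, 131 of them higher) and 2 for the difference of effects, and list counts that moved by more than 1.5 times were 2 NuRD, 5 ISWI and 1 INO80 partner and 2 other ATPases at 48 h, and 4 INO80 and 4 TIP60-EP400 partners at 240 h. With 240 h ctrl as the control of 72 h kd, 3 members were called, and Chd1 (-0.022), Ino80 (-0.18), Srcap (-0.15), Ep400 (-0.075), Chd6 (-0.33) and Chd9 (-0.11) were reversed. The cause of these shifts was not tested.

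Leaving out 1 library at a time, 0 to 2 members passed at 48 h, 0 to 0 between ctrl groups (0 to 2 genes called, limma), 2 to 5 from 48 h to 72 h kd and 0 to 1 for the difference of effects, and 0 to 1 were called from 72 h to 240 h kd. Small values changed sign: at 48 h Srcap ranged from -0.038 to 0.077, Chd6 from -0.057 to 0.11 and Ep400 from -0.094 to 0.014, and at 240 h Ep400 from -0.073 to 0.0029, Smarca4 from -0.026 to 0.017, Chd6 from -0.073 to 0.0085 and Smarca2 from -0.0034 to 0.15.

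Groups share replicate numbers, but same-numbered libraries deviated together with correlations of only -0.38 to 0.365, in no comparison all over 0.1, so the numbers were not read as pairs. With the replicate block, 0 members passed at 48 h (4 at an unadjusted p under 0.05, 4 by voom without the block) and 0 between ctrl groups (6 at an unadjusted p under 0.05), where 0 genes were called (4605 at an unadjusted p under 0.05). The block kept the other counts of members and of all genes called within 1.5 times, though the passes of Chd7 at 72 h (adjusted p = 0.0541, limma), Ep400 from 48 h to 72 h kd (0.063) and Chd9 at 48 h and 72 h (0.0643 and 0.0618) were lost. Of the partner and other genes the text names, Hdac1 (0.0503) and H3f3a (0.0941) at 48 h, H3f3a for the difference of effects (0.0745, and 0.0571 by voom), and Chd6 between ctrl groups (0.0651) lost theirs. List counts that moved by more than 1.5 times were, at 48 h, 0 NuRD partners and 0 other ATPases (1 each at an unadjusted p under 0.05), 1 ISWI and 1 TIP60-EP400 partner and 1 histone variant, and at 240 h 1 INO80 and 1 TIP60-EP400 partner. Depth limits Smarca2, with at most 36 reads per library.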

Other observations

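Of the 19 other Snf2-type ATPase genes, 1 rose and 0 fell at 48 h, 4 rose and 5 fell at 72 h, and 3 rose and 4 fell at 240 h (limma, adjusted p under 0.05), with list medians of 0.005, -0.031 and -0.036. Of all genes tested, 9.68% passed higher and 10.6% lower at 48 h, 29.9% and 27% at 72 h, and 20.2% and 18.5% at 240 h. The 5 that fell at 72 h, named after their values were seen, were Hells, a motor needed for DNA methylation of repeats (by 0.32), Smarcad1, which acts behind the replication fork (by 0.31), Shprh, an ubiquitin ligase with a helicase domain (by 0.32), Btaf1, which takes TBP off DNA (by 0.35), and Atrx (by 0.22), with adjusted p of 0.000244 to 0.0223. From 72 h to 240 h of knockdown, 11 of the 19 rose and 6 fell, against 28.9% and 31.4% of all genes, with a median of 0.28, beside 0.33 for the 10 members and -0.015 for all genes.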
